A study of Rattus norvegicus with 6 samples.

Results

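The genes studied here are 31 genes of sterol and fatty acid synthesis and of its control by sterol regulatory element-binding proteins (SREBPs), chosen by gene symbol from the deposited table of 16770 genes. All 31 were found and all passed the filter on low counts, which left 12614 genes. RNA was sequenced from cultured cells grown out of the proximal aorta of 3-month-old rats of 2 inbred strains, the spontaneously hypertensive rat (SHR) and the normotensive Wistar Kyoto rat (WKY). The labels call the cells endothelial, name no other allele, transgene or drug, and give both strains the same endothelial medium with serum, antibiotics and growth supplement. Each strain had 3 libraries, of which replicates 1 and 2 belonged to batch 1 and replicate 3 to batch 2. The labels do not say whether a library came from its own animal, and the p-values therefore reflect library-to-library spread, which may be technical.

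Most defining endothelial markers were at or near 0. Of 12 endothelial markers, 10 were matched, and 6 of them (Cdh5, Kdr, Tie1, Vwf, Erg and Nos3) stayed under 1 CPM (counts scaled to a common library size) in every library. Of the others, Pecam1 and Esam reached at most 2.18 and 1.87 CPM, Tek had 0.66, 1.85 and 0.44 CPM in WKY and 4.72, 9.38 and 8.32 CPM in SHR, in the order of replicates 1, 2 and 3, and Egfl7 had 6.39 to 27.2 CPM. Libraries held 18462051 to 19947278 counts and 14387 to 14997 genes above 0. All levels below are CPM of the library scaled by edgeR's TMM factors, and a gene with 0 counts could have a level of up to 3 counts, equal to 0.151 to 0.187 CPM depending on the library. The smallest count of any of the 31 genes in a library was 105. In RNA of a whole culture, fewer cells of a type and less RNA per cell cannot be told apart.

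Cholesterol is built from acetyl-CoA through mevalonate, farnesyl diphosphate, squalene and lanosterol, and fatty acids are built from the same acetyl-CoA and then elongated and desaturated. SREBPs are made as precursors in the endoplasmic reticulum membrane, where SCAP, the sterol sensor, holds them. When membrane sterol is low, SCAP escorts the precursor to the Golgi, where proteases release the fragment that enters the nucleus and switches on genes of sterol and fatty acid synthesis. When sterol is plentiful, INSIG proteins keep SCAP and its cargo in the reticulum. SREBP-binding sites usually work with a neighbouring site of NF-Y, a factor that binds the letters CCAAT.

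Promoter windows of 300 bases, from 250 before to 50 after the gene's start, were taken from RefSeq on the GRCr8 build of the Brown Norway rat, which is neither of the study's strains. They were found for 24 of the 31 genes, in 25 windows because Srebf1 has more than 1. The letters CCAAT, searched on both strands, were in 19 of the 25 windows (76%), against 37.5% of all 33469 rat windows and 37.6% of the 11241 windows of tested genes. A strict sterol regulatory element (TCACNCCAC, both strands) was in 0 of 25 windows and in 1.12% of all windows, and the E-box CACGTG was in 3 windows (12%), in 6.42% of all windows and in 9.19% of those of tested genes. Matches to CCAAT and CACGTG cannot overlap, whereas the sterol regulatory element can share end letters with either. A match, or its lack, is a description of these letters only. The windows of 4 genes are shown because the results turn on them: Hmgcs1 and Nsdhl, with 2 and 5 matches to CCAAT, were over 4-fold lower in SHR in batch 2, Lss had the largest strain difference in batch 1, and Acat2, with 0 matches, had the largest in batch 2. Their windows lie at chr2:53382054-53382353 (plus strand), chrX:155817110-155817409 (plus strand), chr20:12118181-12118480 (minus strand) and chr1:50100590-50100889 (plus strand), each printed in the direction of the gene with CCAAT or its reverse complement in capitals.
Hmgcs1: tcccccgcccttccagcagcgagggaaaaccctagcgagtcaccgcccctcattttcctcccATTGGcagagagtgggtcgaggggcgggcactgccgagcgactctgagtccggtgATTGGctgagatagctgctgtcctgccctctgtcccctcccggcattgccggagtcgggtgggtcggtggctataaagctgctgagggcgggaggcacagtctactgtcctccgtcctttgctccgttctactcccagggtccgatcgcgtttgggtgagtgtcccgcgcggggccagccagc
Nsdhl: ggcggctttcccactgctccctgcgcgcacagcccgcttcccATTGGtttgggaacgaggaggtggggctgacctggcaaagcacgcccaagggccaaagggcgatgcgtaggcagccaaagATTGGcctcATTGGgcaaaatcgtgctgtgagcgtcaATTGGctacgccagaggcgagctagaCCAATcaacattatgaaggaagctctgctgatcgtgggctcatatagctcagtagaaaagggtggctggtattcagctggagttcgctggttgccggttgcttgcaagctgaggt
Lss: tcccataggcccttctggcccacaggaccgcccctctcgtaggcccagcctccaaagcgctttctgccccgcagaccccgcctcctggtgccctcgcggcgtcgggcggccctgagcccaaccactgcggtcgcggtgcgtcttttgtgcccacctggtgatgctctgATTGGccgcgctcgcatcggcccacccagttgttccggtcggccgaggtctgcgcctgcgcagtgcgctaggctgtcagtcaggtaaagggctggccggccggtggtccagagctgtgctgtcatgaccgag
Acat2: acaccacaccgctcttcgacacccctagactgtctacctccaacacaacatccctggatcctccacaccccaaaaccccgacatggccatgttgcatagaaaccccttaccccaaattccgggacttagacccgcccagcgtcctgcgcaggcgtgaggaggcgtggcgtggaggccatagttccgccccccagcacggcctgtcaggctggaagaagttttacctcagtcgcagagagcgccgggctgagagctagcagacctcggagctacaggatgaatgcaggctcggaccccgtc

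The strain values of most of these genes had opposite signs in the batches. In batch 1, levels in SHR cells were slightly above those in WKY cells for most genes, with a median log2 difference of 0.19 over the 31 genes and 24 of them above 0. In batch 2, the single SHR library held far less than the single WKY library, with a median of -1.72, 29 of 31 genes lower and 20 lower by at least 2-fold. Over all genes tested, the medians were 0.01 in batch 1 and -0.04 in batch 2, and 8.48% of genes were at least 2-fold lower in SHR in batch 2. Summed over the 31 genes, the level was 4215, 4262 and 5173 CPM in WKY replicates 1, 2 and 3 and 4956, 5021 and 2243 CPM in SHR replicates 1, 2 and 3. The SHR library of batch 2 was the lowest of all 6 libraries in 27 of the 31 genes, as it was in 26.5% of all genes tested. The 4 exceptions were Srebf2, Insig2, Fads1 and Fads2. Both batch 1 SHR libraries lay above both batch 1 WKY libraries in 13 of the 31 genes and below in 2, against 22.2% and 21.2% of all genes. All 13 had a lower SHR level in batch 2, an order found in 8.7% of all genes, while the reverse order was found in 0 of the 31 and in 6.73% of all genes. In 23 of the 31 the fitted batch 1 difference was above 0 and the batch 2 ratio below 0, as in 22.3% of all genes. In 10 of the 31 genes both batch 1 SHR libraries lay above WKY and the batch 2 SHR level was at least 2-fold lower, against 0.729% of all genes. A gene is called below where its p, adjusted over all 12614 genes by the Benjamini-Hochberg method, was under 0.05.

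**Figure D1:**
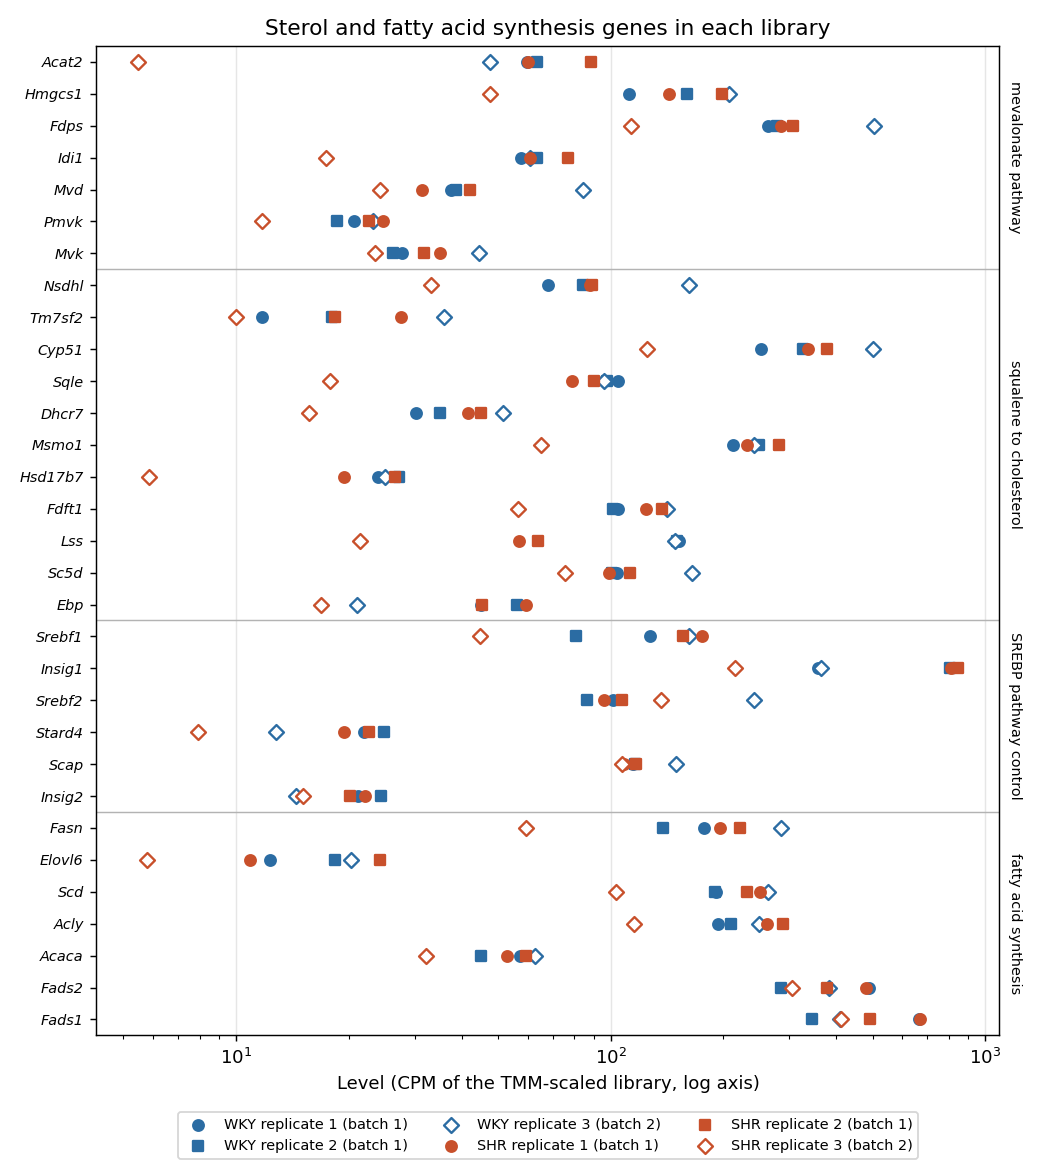
Level of each of the 31 genes in the 6 libraries, in CPM on a log axis, grouped by the step of the pathway; blue is WKY, orange is SHR, filled symbols are batch 1 and open diamonds batch 2. The open orange diamond, SHR replicate 3, is the leftmost point in 27 of the 31 genes.

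In the following, levels are listed for replicates 1, 2 and 3 of each strain in that order. The mevalonate pathway begins with Acat2, the cytosolic thiolase that joins acetyl-CoA units, which had 59.8, 63.5 and 47.5 CPM in WKY and 60.2, 88.6 and 5.46 CPM in SHR. Hmgcs1, which makes HMG-CoA, had 112, 160.1 and 207 CPM in WKY and 143, 198 and 47.5 CPM in SHR. In both genes the batch 1 libraries of the strains overlapped and SHR replicate 3 was the lowest. Acat2 was 8.70-fold lower in SHR in batch 2 (log2 ratio -3.12), the largest ratio among the 31 genes, against a batch 1 difference of 0.27 (standard error, SE, 0.22). Hmgcs1 was 4.36-fold lower in batch 2 (log2 ratio -2.12), against 0.33 (SE 0.26) in batch 1. Reads of Acat2 can be shared with its copy Acat2l1, and the sum of both genes was 79.3, 86.6 and 61.3 CPM in WKY and 82.0, 124 and 7.69 CPM in SHR, with the same low library.

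The mevalonate kinase gene Mvk had 27.8, 26.2 and 44.4 CPM in WKY and 35.0, 31.7 and 23.5 CPM in SHR, and the phosphomevalonate kinase gene Pmvk had 20.6, 18.6 and 23.3 CPM in WKY and 24.7, 22.7 and 11.7 CPM in SHR. In both, each SHR library of batch 1 lay above each WKY library of batch 1, while in batch 2 the order was the opposite. Mvd, which decarboxylates mevalonate diphosphate to the isoprene unit, had 37.4, 38.6 and 84.5 CPM in WKY and 31.3, 42.0 and 24.2 CPM in SHR. Idi1, the isomerase of that unit, had 57.5, 63.7 and 61.0 CPM in WKY and 60.8, 76.8 and 17.4 CPM in SHR. Fdps, which joins the units into farnesyl diphosphate, had 263, 279 and 504 CPM in WKY and 285, 307 and 113 CPM in SHR. WKY replicate 3 was the highest library for Mvk, Mvd and Fdps, and SHR replicate 3 the lowest for all 5 genes. The batch 2 log2 ratios were -0.91 for Mvk, -0.99 for Pmvk, -1.81 for Mvd, -1.81 for Idi1 and -2.15 for Fdps. The batch 1 differences of these genes lay between -0.05 (Mvd) and 0.30 (Mvk), with SEs of 0.15 to 0.19.

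Among the enzymes from squalene to cholesterol, Fdft1, the squalene synthase gene, had 105, 101 and 141 CPM in WKY and 124, 137 and 56.6 CPM in SHR. Cyp51, which removes the C-14 methyl group of lanosterol, had 253, 326 and 501 CPM in WKY and 337, 378 and 125 CPM in SHR. Nsdhl, a dehydrogenase of the C-4 demethylation, had 68.0, 84.5 and 162 CPM in WKY and 87.9, 89.3 and 33.2 CPM in SHR. In each of these 3 genes SHR was above WKY in every batch 1 comparison of libraries and below in batch 2. The late-acting reductase gene Dhcr7, which makes cholesterol from its last precursor, had 30.1, 34.9 and 51.6 CPM in WKY and 41.5, 45.02 and 15.6 CPM in SHR and was higher in SHR in batch 1 at an unadjusted p of 0.0447 (log2 difference 0.41, SE 0.15), which did not survive adjustment over all genes by edgeR's quasi-likelihood test (adjusted p = 0.479). Tm7sf2, a sterol C-14 reductase, had 11.7, 18.1 and 36.0 CPM in WKY and 27.6, 18.4 and 9.98 CPM in SHR, with the same order.

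Msmo1, the C-4 methyl oxidase, had 212, 249 and 241 CPM in WKY and 231, 281 and 65.0 CPM in SHR. Hsd17b7, the ketoreductase of the same demethylation, had 23.9, 27.2 and 25.0 CPM in WKY and 19.5, 26.5 and 5.87 CPM in SHR. Sc5d, the sterol desaturase, had 104, 101 and 165 CPM in WKY and 99.0, 113 and 75.4 CPM in SHR. The strains overlapped in batch 1 for all 3, and SHR replicate 3 was the lowest library for each. Ebp, the sterol isomerase, behaved differently: it had 45.04, 56.3 and 21.0 CPM in WKY and 59.4, 45.3 and 16.9 CPM in SHR, so that both batch 2 libraries were low. Its batch 2 log2 ratio was -0.32, against -1.89 for Msmo1, -2.09 for Hsd17b7 and -1.13 for Sc5d. For Fdft1, Cyp51, Nsdhl, Dhcr7 and Tm7sf2 the batch 2 log2 ratios were -1.32, -2.004, -2.29, -1.72 and -1.85.

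Lss and Sqle were the genes in which all SHR libraries lay below all WKY libraries, an order shown by 5.3% of all genes tested. Lss encodes lanosterol synthase, which closes the sterol rings, and had 152, 150.4 and 148 CPM in WKY and 56.9, 63.8 and 21.4 CPM in SHR. Levels of Lss in WKY were nearly constant across batches, whereas SHR was lower in each batch and lowest in batch 2. In batch 1 Lss was 2.504-fold lower in SHR (log2 difference -1.32, SE 0.14), the smallest p of the 31 genes (unadjusted p = 0.000234 by edgeR's quasi-likelihood test, adjusted p = 0.077). With the replicate number as a block the adjusted p was 0.261. DESeq2's Wald test called it, with an adjusted p of 3.89e-08. In batch 2 it was 6.92-fold lower (log2 ratio -2.79). Over all 6 libraries, with batch in the model, the mean Lss level of the WKY libraries was 150.1 ± 1.78 CPM, and that of the SHR libraries 47.4 ± 22.7 CPM (SD, n = 3 for either strain, with the batch difference inside the spread), a log2 difference of -1.80 (SE 0.33). That difference was not called by edgeR (unadjusted p = 0.00196, adjusted p = 0.144), and it was called by DESeq2 (adjusted p = 2.88e-05).

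Sqle, the squalene epoxidase that is a rate-limiting enzyme of the sterol branch, had 105, 97.7 and 96.0 CPM in WKY and 79.0, 90.0 and 17.8 CPM in SHR. Its strain difference was small in batch 1 (log2 difference -0.26, SE 0.14, unadjusted p = 0.133 by edgeR) and 5.40-fold in batch 2 (log2 ratio -2.43). The other 5 genes that were negative in batch 1 were Mvd, Hsd17b7, Insig2, Scap and Stard4, each with a difference smaller than its SE.

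**Figure D2:**
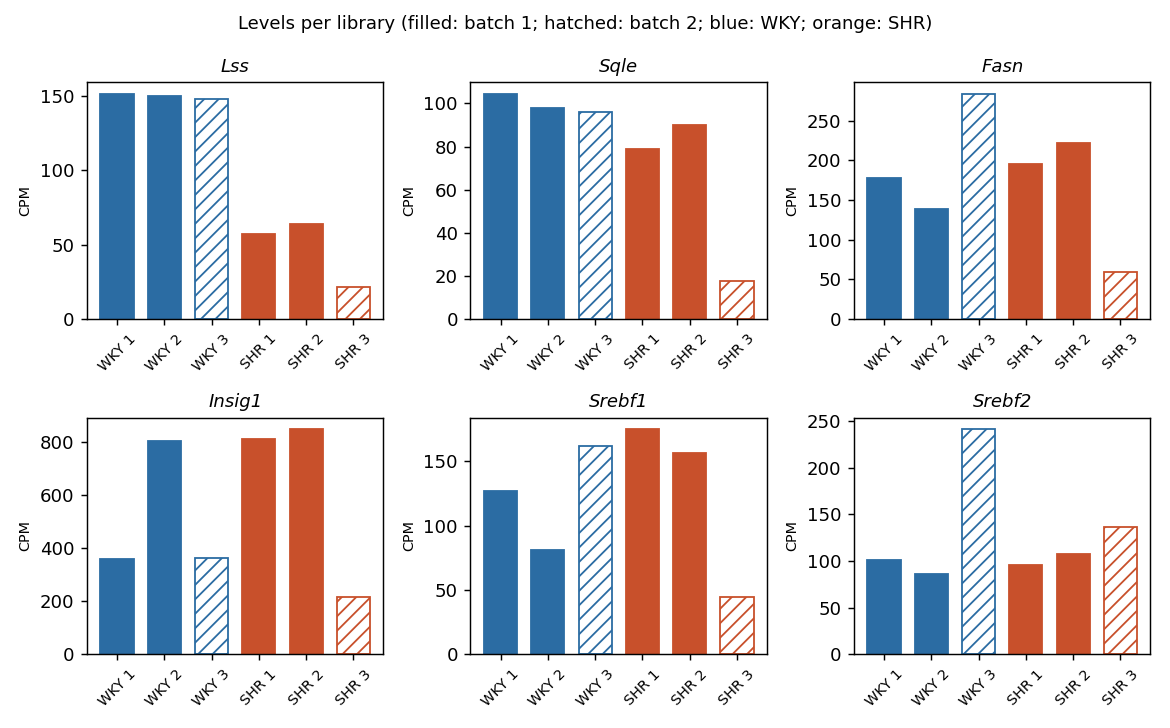
Level in CPM (bars from 0) of 6 genes in each library; filled bars are batch 1 and hatched bars batch 2, blue is WKY and orange SHR. Lss is lower in all SHR libraries (21.4 to 63.8 CPM) than in WKY (148 to 152 CPM), Sqle, Fasn and Srebf1 are low mainly in SHR replicate 3, Insig1 is also low in WKY replicates 1 and 3, and Srebf2 is highest in WKY replicate 3. The 6 genes were chosen after their values were seen.

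Among the control genes, Srebf1, which encodes the SREBP forms that favour fatty acid genes and whose transcript is itself induced by SREBP and by the liver X receptor, had 127, 80.7 and 161 CPM in WKY and 175, 156 and 44.7 CPM in SHR. Both SHR libraries of batch 1 lay above both of WKY (log2 difference 0.67, SE 0.25, unadjusted p = 0.0444, adjusted p = 0.479 by edgeR), and in batch 2 Srebf1 was 3.61-fold lower in SHR. Srebf2, which encodes the form that favours sterol genes, had 101, 86.7 and 242 CPM in WKY and 96.0, 108 and 137 CPM in SHR. It was the 1 gene of the 31 that was called higher in batch 2 than in batch 1 (log2 difference 0.92, SE 0.24, adjusted p = 0.0259 by edgeR), a call made for 21% of all genes. That call was lost without WKY replicate 1, 2 or 3 or SHR replicate 1, with adjusted p between 0.0593 and 0.153. Without WKY replicate 3 its difference was 0.41.

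Scap had 115, 116 and 149 CPM in WKY and 109, 117 and 107 CPM in SHR, the narrowest range of the group as a ratio of highest to lowest. Insig1, a retention protein whose transcript is a sensitive SREBP target, had 357, 804 and 363 CPM in WKY and 812, 848 and 214 CPM in SHR. WKY replicate 1 held less than the other batch 1 libraries, and without it the strain difference of Insig1 in batch 1 was 0.05, against 0.52 (SE 0.41) with all libraries and 1.22 without WKY replicate 2. Insig2, its paralog, had 21.1, 24.3 and 14.4 CPM in WKY and 22.2, 20.2 and 15.1 CPM in SHR. Stard4, a cytosolic sterol carrier, had 22.0, 24.8 and 12.7 CPM in WKY and 19.4, 22.7 and 7.90 CPM in SHR. Insig2 and Stard4 were called lower in batch 2 by edgeR with strain in the model (log2 differences -0.57 and -1.14, adjusted p = 0.0294 and 0.0078), as was Ebp (-1.45, adjusted p = 0.00398), a call made for 22.5% of all genes. At an unadjusted p under 0.05, 1 gene was higher and 4 were lower in batch 2, against 26.1% and 27% of all genes, and DESeq2 called 1 higher and 5 lower, against 25.9% and 25.1%. The call of Insig2 was lost when any 1 library was left out, with adjusted p between 0.05001 and 0.134. In batch 2 the strains differed by log2 ratios of -0.76 for Insig1, 0.06 for Insig2, -0.82 for Srebf2, -0.48 for Scap and -0.69 for Stard4. None of these 5 reached the 2-fold that 20 of the 31 genes showed.

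In fatty acid synthesis, Acly, which makes cytosolic acetyl-CoA from citrate, had 193, 209 and 248 CPM in WKY and 261, 288 and 116 CPM in SHR. Fasn, the fatty acid synthase, had 177, 138 and 284 CPM in WKY and 195, 221 and 59.3 CPM in SHR. Scd, a stearoyl-CoA desaturase, had 191, 190.3 and 263 CPM in WKY and 251, 231 and 103 CPM in SHR. In all 3 the batch 1 libraries of SHR lay above those of WKY, by log2 differences of 0.45 (SE 0.15), 0.40 (SE 0.19) and 0.34 (SE 0.15), and the batch 2 log2 ratios were -1.10, -2.26 and -1.35. Acly had an unadjusted p of 0.033 in batch 1 by edgeR (adjusted p = 0.46). The estimated counts of Scd were not all whole, as happens where reads fit several genes, and summed with its paralog Scd2 it had 2044, 3010.4 and 1917 CPM in WKY and 4202, 4255 and 727 CPM in SHR, in the same order of strains.

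Acaca, the acetyl-CoA carboxylase that commits carbon to fatty acids, had 57.2, 44.9 and 62.9 CPM in WKY and 53.0, 59.6 and 32.1 CPM in SHR. The elongase gene Elovl6 had 12.3, 18.4 and 20.2 CPM in WKY and 10.9, 24.2 and 5.77 CPM in SHR and varied between the libraries of 1 strain and batch. As with Scd, the estimated counts of Elovl6 were not whole (in all 6 libraries). Fads1, a desaturase of polyunsaturated fatty acids, had 666, 344 and 409 CPM in WKY and 668, 494 and 411 CPM in SHR. Fads2, the desaturase of an earlier step, had 489.7, 285 and 383 CPM in WKY and 480.4, 378 and 305 CPM in SHR. Both desaturase genes were higher in replicate 1 than in replicate 2 in either strain, and their batch 2 log2 ratios were 0.01 and -0.33. For Acaca and Elovl6 the batch 2 log2 ratios were -0.97 and -1.81.

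The change of the strain effect between batches was tested as an interaction in edgeR, across all genes, with 2 residual degrees of freedom. Of the 31 genes 23 had an unadjusted p below 0.05, all towards a lower SHR level in batch 2, against 7.22% of all genes in that direction and 5.44% in the other. Not 1 of the 31 genes passed adjustment over all genes (0 of 12614 genes did; the adjusted p of these 23 lay between 0.136 and 0.314), while DESeq2's Wald test called 19 of the 31, all in that direction, against 1.72% of all genes (1.86% in the other). The median interaction over the 31 genes was -1.69 on the log2 scale, against -0.04 over all genes. By group, the unadjusted threshold was reached by 7 of 7 mevalonate pathway genes, 10 of 11 genes from squalene to cholesterol, 2 of 6 control genes and 4 of 7 fatty acid genes. Largest in size were Acat2 (-3.39, SE 0.41, unadjusted p = 0.000389 by edgeR), Fasn (-2.66, SE 0.33, unadjusted p = 0.000485) and Srebf1 (-2.52, SE 0.44, unadjusted p = 0.00237). The 8 genes that did not reach it were Ebp, Insig1, Insig2, Scap, Stard4, Elovl6, Fads1 and Fads2, with interactions between -1.997 (Elovl6) and 0.16 (Insig2). This test takes its error from the batch 1 libraries alone, and both batch 2 values rest on 1 library each.

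**Figure D3:**
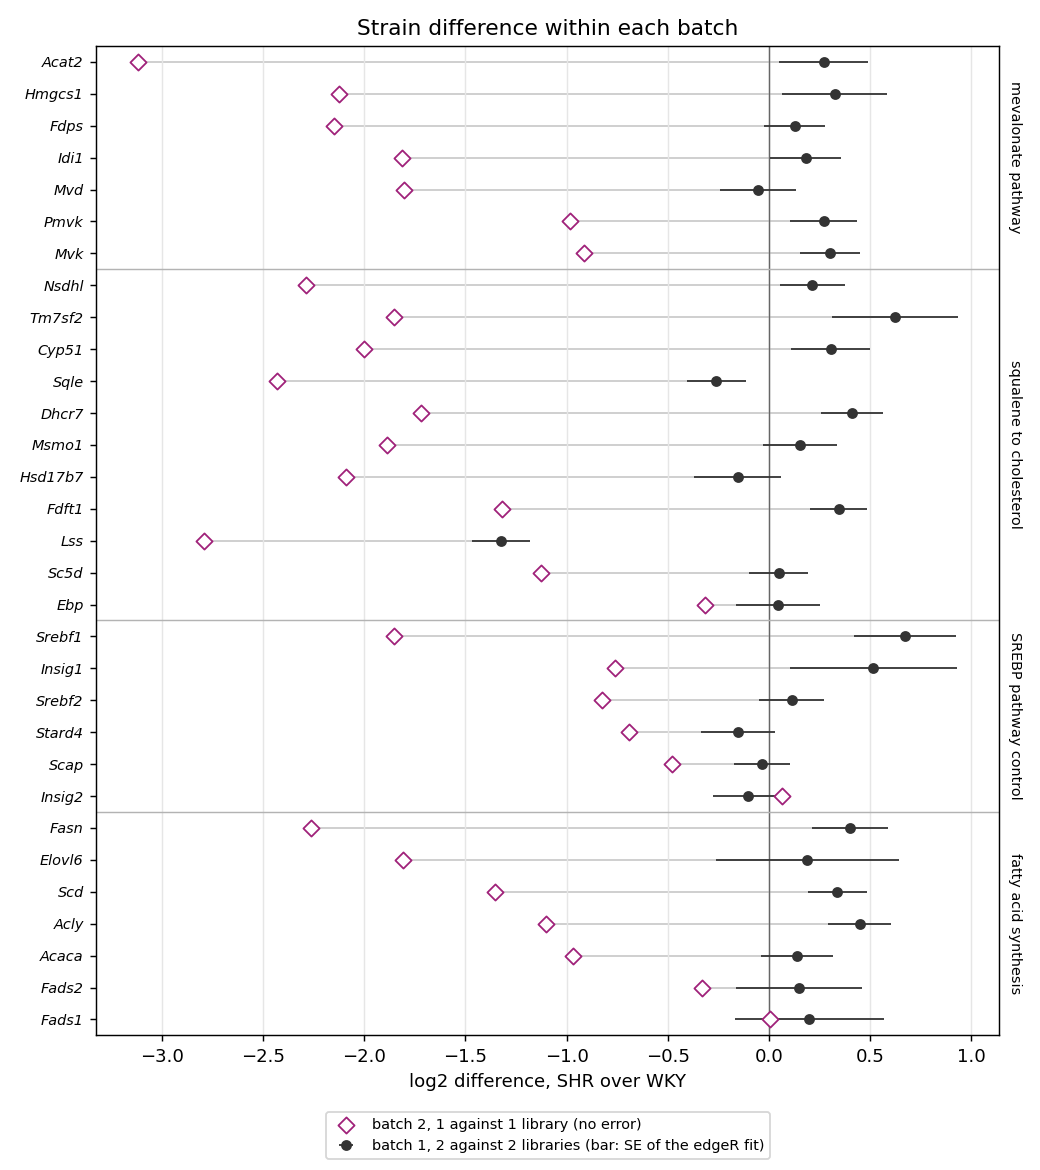
Log2 difference of SHR over WKY for each gene in batch 1 (filled circles; bars are the SE of the edgeR fit from 2 libraries per strain) and the log2 ratio of the single libraries in batch 2 (open diamonds, no error). Circles lie between -1.32 (Lss) and 0.67 (Srebf1), and diamonds between -3.12 (Acat2) and 0.06 (Insig2).

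With batch as a term and both batches averaged, the strain comparison called 0 of the 31 genes in edgeR, against 0.103% of all genes higher and 0.151% lower. An unadjusted p under 0.05 was reached by Lss, lower in SHR, and by 0 genes in the higher direction, against 7.18% and 6.1% of all genes. DESeq2 called Lss alone, against 2.66% of all genes lower and 2.85% higher. The median log2 difference of -0.27 joins a batch 1 value of 0.19 and a batch 2 value of -1.72. Without SHR replicate 3 or without WKY replicate 3 it was 0.19. In either case the batch term fits the remaining batch 2 library exactly, so this value only repeats that of batch 1. Within batch 1, edgeR called 0 of the 31 genes (0.0951% of all genes were called higher and 0.103% lower). There 3 genes (Dhcr7, Srebf1 and Acly) had a higher SHR level and Lss a lower level at an unadjusted p under 0.05, against 4.5% and 5.57% of all genes. DESeq2 called Lss lower and 0 genes higher in batch 1, against 1.3% and 1.16% of all genes. With the replicate number as a block in batch 1, 1 gene was higher at an unadjusted p below 0.05 and 0 were called.

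Seen within a strain, the WKY library of batch 2 lay above both batch 1 WKY libraries in 19 of the 31 genes and below both in 6, against 42.6% and 45.4% of all genes. The SHR library of batch 2 lay below both batch 1 SHR libraries in 30 of 31 genes, against 44.3% of all genes, and Srebf2 was the exception. Srebf2, Tm7sf2 and Mvd were the genes furthest above the batch 1 WKY mean in WKY replicate 3, by log2 differences of 1.36, 1.27 and 1.15. In SHR replicate 3 the log2 difference from the batch 1 SHR mean ranged from -3.77 (Acat2) to 0.42 (Srebf2).

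Other genes of the same pathways were taken from lists of known members. Of 12 further sterol and isoprenoid genes, edgeR called 0 within batch 1 and 0 in the interaction. In the interaction 2 of the 12 had an unadjusted p below 0.05 towards lower SHR in batch 2, against 7.22% of all genes. Cyb5r3, a cytochrome b5 reductase, did not reach that threshold (interaction, unadjusted p = 0.0689 by edgeR). It had 268, 479 and 1799 CPM in WKY and 482, 407 and 881 CPM in SHR. Among the smallest p-values in batch 1 were those of Ggps1, the geranylgeranyl diphosphate synthase (log2 difference -0.28, SE 0.19), and Pdss2, a subunit of the enzyme making the coenzyme Q side chain (0.30, SE 0.21). DESeq2 called 0 of the 12 within batch 1 and 1 lower in the interaction, against 1.72% of all genes lower there. The list's median batch 2 log2 ratio was -0.16, against -0.04 over all genes. In batch 2, 3 of the 12 genes were at least 2-fold lower in SHR, against 8.48% of all genes.

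Of 20 matched genes of further fatty acid and lipid synthesis, 19 were tested, and edgeR called 0 within batch 1 and 0 in the interaction. At an unadjusted p under 0.05 within batch 1, 5 had higher levels in SHR and 1 had a lower level, against 4.5% and 5.57% of all genes. Among those higher were Acss2, which activates acetate, with 11.2, 13.5 and 37.4 CPM in WKY and 27.6, 25.3 and 45.7 CPM in SHR, Aacs, which activates acetoacetate, with 93.8, 97.0 and 102 CPM in WKY and 146, 189 and 47.8 CPM in SHR, and Acsl3, an acyl-CoA synthetase, with 33.8, 44.0 and 37.7 CPM in WKY and 67.9, 68.2 and 23.3 CPM in SHR. Aacs and Acsl3 had their lowest library in SHR replicate 3, whereas Acss2 had its highest there. In the interaction the same threshold was met by 8 genes in the lower and 2 in the higher direction, against 7.22% and 5.44% of all genes. Me1, the malic enzyme that supplies NADPH, had 61.6, 71.1 and 101 CPM in WKY and 73.3, 64.7 and 28.1 CPM in SHR, with SHR replicate 3 lowest. Dgat2, which makes triglyceride, went the other way, with 44.1, 66.0 and 5.78 CPM in WKY and 62.0, 53.4 and 61.0 CPM in SHR, and WKY replicate 3 was its lowest library. DESeq2 called 2 of the 19 higher within batch 1 (1.16% of all genes), and 6 lower and 1 higher in the interaction (1.72% and 1.86% of all genes).

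Of 18 genes of SREBP processing and sterol uptake, edgeR called 0 in either test, with 2 lower within batch 1 and 4 lower in the interaction at an unadjusted p below 0.05, against 5.57% and 7.22% of all genes. Vldlr, the very-low-density lipoprotein receptor gene, had 104, 112 and 549 CPM in WKY and 59.0, 49.7 and 113 CPM in SHR and was lower in SHR in each batch (batch 1 log2 difference -0.99, SE 0.16, unadjusted p = 0.00173 by edgeR; batch 2 log2 ratio -2.29). Lrp8, another receptor of that family, had 62.6, 53.0 and 35.6 CPM in WKY and 30.9, 45.1 and 10.7 CPM in SHR. Tmem97, a regulator of the cholesterol transporter NPC1, had 114, 105 and 39.9 CPM in WKY and 118, 109 and 23.7 CPM in SHR and was low in both batch 2 libraries. Erlin1, a reticulum protein that restrains SREBP, had 80.8, 79.9 and 38.9 CPM in WKY and 91.2, 95.0 and 43.8 CPM in SHR. The proteases Mbtps1 and Mbtps2, which release SREBP in the Golgi, had batch 2 log2 ratios of -0.15 and 0.36. DESeq2 called 1 of the 18 lower within batch 1 and 2 lower in the interaction, against 1.3% and 1.72% of all genes.

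The liver X receptor (LXR) senses oxysterols and switches on sterol efflux. Of 13 genes of this pathway 12 were tested, and edgeR called 0 in either test. At an unadjusted p under 0.05, 2 had higher and 3 had lower SHR levels within batch 1 (4.5% and 5.57% of all genes), and the interaction had 2 in either direction (5.44% higher and 7.22% lower over all genes). Abcg1, a sterol exporter and LXR target, had 14.4, 27.3 and 18.9 CPM in WKY and 52.9, 53.3 and 7.95 CPM in SHR, which was 2.54-fold higher in SHR in batch 1 (log2 difference 1.35, SE 0.33, unadjusted p = 0.0104 by edgeR) and 2.38-fold lower in batch 2. Lpcat3, which remodels phospholipids, had 152, 198 and 223 CPM in WKY and 241, 229.6 and 91.8 CPM in SHR, in the same order. Arl4c, a small GTPase, had 25.2, 25.0 and 1.93 CPM in WKY and 8.98, 15.9 and 3.27 CPM in SHR, and Nceh1, a cholesteryl ester hydrolase, had 33.9, 29.8 and 10.7 CPM in WKY and 14.1, 20.2 and 11.8 CPM in SHR. Both had lower levels in SHR in batch 1 and not in batch 2. DESeq2 called 1 of the 12 higher within batch 1 and 2 lower in the interaction, against 1.16% and 1.72% of all genes.

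Other measures moved with the batches and with the low library. The summed level of 10 proliferation genes was 976 to 1421 CPM in batch 1 and 147 (WKY) and 166 (SHR) CPM in batch 2, so both batch 2 libraries were low in these genes while only SHR replicate 3 was low in the sum of the 31 lipid genes. Of the 8 smooth muscle markers the sum was 749 to 903 CPM in batch 1, 8144 CPM in WKY replicate 3 and 1860.1 CPM in SHR replicate 3. Largest in batch 2 were Acta2 (3630 CPM in WKY, 731 CPM in SHR) and Tagln (3043 and 480 CPM). Tagln in SHR replicate 3 was not above its batch 1 levels (498 to 578 CPM). Des (3.11 CPM in WKY replicate 3, 87.7 CPM in SHR replicate 3) and Cnn1 (7.65 and 17.3 CPM) had the opposite strain order there. The 8 fibroblast markers summed to 5255 to 13556 CPM, a sum carried by the collagen genes Col1a1 and Col3a1, and some single markers separated the strains. Dcn, a matrix proteoglycan gene, had 61.5, 26.9 and 8.39 CPM in WKY and 386, 245 and 1307 CPM in SHR. Lum, a related gene, had 16.8, 29.7 and 69.2 CPM in WKY and 171, 85.8 and 599 CPM in SHR. Both had their highest level in SHR replicate 3, the library in which the lipid genes were low, as did Dpt (42.6 CPM, against 0.062 CPM in WKY replicate 3) and Tcf21 (24.0 CPM, against 0.12 CPM). Col1a1 went the other way in batch 2, with 10878 CPM in WKY replicate 3 and 4560 CPM in SHR replicate 3. Col3a1 was highest in SHR replicate 1 (3852 CPM, against 3062 CPM in SHR replicate 3). Pi16 differed little between the strains in batch 1 (log2 difference -0.05, SE 0.35). With the batch term, 6 of the 8 fibroblast markers were higher in SHR at an unadjusted p under 0.05, against 6.1% of all genes. Of the 8, edgeR called 1 higher (Tcf21), against 0.103% of all genes. The median log2 ratio of the 8 in batch 2 was 1.98, against -0.04 over all genes. The 7 mesothelial markers summed to 311 to 639 CPM in batch 1, 83.6 CPM in WKY replicate 3 and 1197 CPM in SHR replicate 3. Msln carried most of these sums, with 620, 306 and 61.3 CPM in WKY and 379, 455 and 758 CPM in SHR. The other mesothelial markers were also each highest in SHR replicate 3, from 0.42 CPM (Krt19) to 166 CPM (Upk3b). The 9 adipocyte markers summed to 52.2 to 122 CPM in the other 5 libraries and 295 CPM in SHR replicate 3, with Lep at 0 in all libraries. In SHR replicate 3 this sum was carried by Plin4 (149.8 CPM) and Lpl (99.0 CPM), while Pparg and Fabp4 had 24.8 and 14.1 CPM. Adipoq, Plin1, Cfd and Cidec had only 1.66, 2.55, 2.60 and 0.31 CPM there. The 7 macrophage markers summed to 28.9 to 67.8 CPM, with Ptprc, Adgre1 and C1qa at 0 in all libraries, and the 10 endothelial markers to 18.7 to 37.6 CPM. The part of cell makeup in the batch 2 strain ratios of the lipid genes was not tested, and in batch 2, with 1 library per strain, library and strain cannot be told apart.

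**Figure D4:**
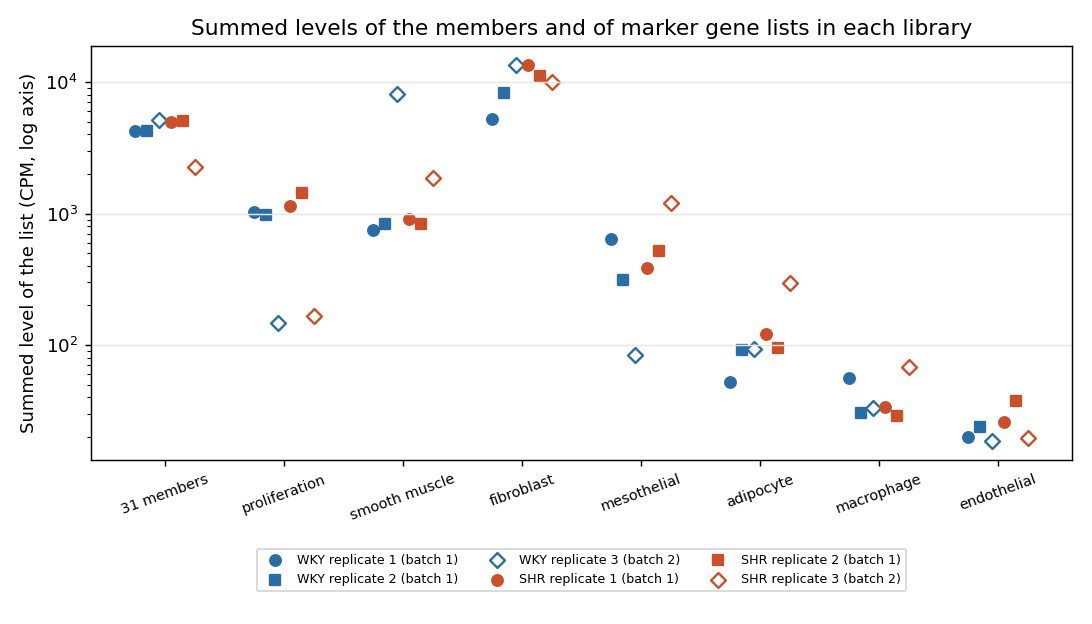
Summed CPM (log axis) of the 31 lipid synthesis genes and of 7 marker gene lists in each library; blue is WKY, orange SHR, filled symbols batch 1 and open diamonds batch 2. The lipid gene sum is lowest in SHR replicate 3 (2243 CPM), while the proliferation sum is low in both batch 2 libraries (147 and 166 CPM).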

How the data were processed

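RNA sequencing was done on 6 libraries of cultured rat aortic cells, 3 per strain. The submitters' processing notes name the Rnor_6.0 build, the tools RSEM (1.2.28) and Bowtie2 (2.4.4), and also DESeq2 (1.42.1). The deposited gene table holds the authors' expected counts (RSEM estimates, 8.96% not whole at a tolerance of 0.001), which were rounded. A second deposited table, with the batch difference removed, was not used. Genes were filtered with filterByExpr, scaled by TMM and tested with edgeR's quasi-likelihood F-test (version 4.0.16, R 4.3.3) in 3 ways: strain with a batch term, strain within batch 1, and the batch by strain interaction. The batch coefficient was read from the strain fit, and the ratio of the 2 single batch 2 libraries has no test. DESeq2 (1.42.0), no filter, other size factors, leaving out libraries and the replicate block were alternatives. The calculations were tested on simulated data. Libraries of the same replicate number deviated together (r = 0.30, 0.40 and 0.66 across genes, which includes the shared batch), while replicates 1 and 2 within batch 1 did not pair across strains (r = -0.20). The genes and lists were chosen with earlier results of these data known. All 31 genes are named, values in every library are given for each, and of each other pathway list those with the 3 smallest p-values within batch 1 and in the interaction are named, apart from some genes not reported here.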

Additional observations from a re-analysis of the deposited data

Results flagged for a closer look

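In 13 of the 31 genes both SHR libraries lay above both WKY libraries in batch 1 and the SHR library lay below the WKY library in batch 2, an order shown by 8.7% of all genes tested, while the reverse order was shown by 6.73%. The difference of the strain effect (batch 2 minus batch 1, log2, edgeR) was tested. Its sign is fixed as negative by the order used to pick these genes. The p-values come from the same libraries as the choice, so they are no separate support for it. Of the 13 genes, 12 had an unadjusted p below 0.05 and 0 of the 13 passed adjustment over all genes. In the mevalonate pathway the difference was -1.22 for Mvk, -1.26 for Pmvk and -2.28 for Fdps. Among genes from squalene to cholesterol it was -1.66 for Fdft1, -2.31 for Cyp51, -2.48 for Tm7sf2, -2.505 for Nsdhl and -2.13 for Dhcr7. Among control genes it was -1.28 for Insig1 (unadjusted p = 0.141 by edgeR) and -2.52 for Srebf1. In fatty acid synthesis it was -1.55 for Acly, -2.66 for Fasn and -1.69 for Scd.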

How the results depend on the processing

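With 1 library per strain in batch 2, every batch 2 value rests on single libraries. Over the 31 genes, the median strain difference with a batch term (-0.27) was 0.19 with batch 1 libraries alone. It was -0.48 to 0.19 when 1 library was left out. The 0.19 without WKY replicate 3 or SHR replicate 3 only repeats the batch 1 value, because the batch term fits the remaining batch 2 library exactly. The genes at an unadjusted p below 0.05 were then 3 higher with batch 1 alone and 0 to 3 higher with 1 library left out, and DESeq2 gave 2 lower, with 1 called lower. Within batch 1 DESeq2 called 1 gene lower, against 1.3% of all genes. Leaving out 1 library of batch 1, which leaves 1 library of a strain there, gave medians of 0.077 to 0.24. The replicate block gave 1 higher at an unadjusted p below 0.05 within batch 1, and changed no call with the batch term (median -0.27) or in the interaction. Pairing crossed in batch 1, chosen after seeing the data, gave 1 called lower, against 0.341% of all genes, and 5 higher at an unadjusted p below 0.05. In the interaction DESeq2 called 19 lower, and leaving out 1 library gave 0 to 10 called lower (8 without WKY replicate 1 and 10 without WKY replicate 2, against 0.365% and 0.602% of all genes), 21 to 25 lower at an unadjusted p below 0.05 and medians of -1.79 to -1.53. With gene copies summed, chosen after seeing the data, the median was -1.75. For batch 2 over batch 1 the median was -0.34, and -0.27 with no strain term. DESeq2 called 5 lower, and leaving out 1 library gave 0 to 8 called higher (8 without SHR replicate 3, against 15.4% of all genes), 2 to 20 called lower (20 without WKY replicate 3, against 17.4% of all genes), 0 to 12 higher and 3 to 25 lower at an unadjusted p below 0.05 and medians of -1.42 to 0.37. With total counts only, the batch 2 ratio had a median of -1.57. Small batch 1 differences ranged across 0 when 1 library was left out: Mvd -0.28 to 0.15, Hsd17b7 -0.39 to 0.054, Ebp -0.16 to 0.23, Sc5d -0.045 to 0.14, Acat2 -0.032 to 0.53, Insig2 -0.20 to 0.0075, Scap -0.084 to 0.020, Acaca -0.018 to 0.33, Elovl6 -0.50 to 0.66, Fads1 -0.19 to 0.75 and Fads2 -0.19 to 0.59. The interaction of Fads1 ranged from -0.76 to 0.19. The cause of the other changes was not tested.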

Other observations

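The following genes were chosen after their values were seen, and levels are given for replicates 1, 2 and 3 in turn. Acat2l1, the copy of Acat2, had 19.5, 23.1 and 13.8 CPM in WKY and 21.8, 35.0 and 2.24 CPM in SHR, with the low value in SHR replicate 3. Scd2, the paralog of Scd, had 1853, 2820.1 and 1654 CPM in WKY and 3951, 4024 and 624 CPM in SHR, so that both batch 1 libraries of SHR lay above WKY and the batch 2 library lay below it.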
